A study of Mus musculus with 8 samples.

Results

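The mRNAs of the cytosolic ribosomal proteins were followed in mouse glomerular mesangial cells (MMC) with and without miR-379. They were chosen by gene symbol alone, as Rpl or Rps with a number and an optional a, x or l, plus Rpsa and the stalk genes Rplp0, Rplp1 and Rplp2, with pseudogene entries left out. This rule took 82 of the 24639 genes listed. They comprised 30 small subunit genes, 43 large subunit genes, the 3 stalk genes and 6 paralogue forms whose symbols end in l.

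WT MMC and miR-379KO MMC were primary cultures from pooled glomeruli of C57BL/6J mice, and the knockout mice were homozygous for a germline CRISPR-Cas9 nickase deletion at miR-379. All cells were untreated and grown in RPMI medium with serum, and the labels separate the groups by genotype and assay alone. Each genotype was measured in total RNA and in RNA recovered with anti-AGO2 beads after UV cross-linking and sonication (AGO2-IP), with 2 samples, A and B, per group. AGO2 is the Argonaute protein that holds microRNAs on their target RNAs. The number of founder lines and the age of the mice behind these cultures are not given in the sources used here.

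A ribosome contains 1 copy of most ribosomal proteins, and cells make them in matched amounts at a high rate. Their mRNAs are short, abundant, and in most cases begin at a C within a run of pyrimidines (the 5′ terminal oligopyrimidine or TOP element), through which mTOR signalling controls their translation. Many of the genes also carry small nucleolar RNAs (snoRNAs), the guides for ribosomal RNA modification, in their introns, and many have left processed copies elsewhere in the genome.

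The start sites of several members are shown with regard to this element. The sequences are from RefSeq (GRCm38.p6), 30 bases each, with 12 bases before the annotated first base. Capitals mark the pyrimidine motif CTTTCC, the motif CTCTTT, the motif CTTCCT or the motif CTTTTC, 6 letters each, which can overlap one another, on the transcribed strand. Rplp2 and Rpl18 were among the members lowest in miR-379KO AGO2-IP below, Rpl12 and Rps26 were at opposite ends of AGO2-IP recovery, and Rpl28 and Rps6 have a motif exactly at the annotated start. These 6 were taken from the 21 of 61 members with a start sequence that hold a motif within the 30 bases. Rps16 and Rps3, both followed below, are 2 of the other 40 and have no capitals.
Rplp2 (chr7:141447639-141447668, plus strand): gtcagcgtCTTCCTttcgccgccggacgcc
Rpl18 (chr7:45718059-45718088, plus strand): gtctcgcaggccgCTCTTTCCccgcccact
Rpl12 (chr2:32961700-32961729, plus strand): ggagcaggatccgtCTTTTCggctttcggc
Rps26 (chr10:128626489-128626518, minus strand): gggcaagccgccggatcCTCTTTcgagtct
Rpl28 (chr7:4792953-4792982, plus strand): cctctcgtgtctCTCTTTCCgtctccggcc
Rps6 (chr4:86857350-86857379, minus strand): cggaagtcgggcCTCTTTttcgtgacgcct
Rps16 (chr7:28350677-28350706, plus strand): gcttctgtcgtgacgtagcactcaatgcgc
Rps3 (chr7:99483692-99483721, minus strand): gcaagggtcgccgcgctgcgcggcgtcatt
The 61 are those of the 82 members with a promoter sequence at the start of their representative transcript. In the wider window, at least 1 of the 4 motifs lay within 50 bases of the start on the transcribed strand in 42 of these 61 (68.9%), compared to 17.1% of 32851 promoters listed for all genes. On the other strand the motifs occurred in 8 of the 61 (13.1%), compared to 17.2% of all promoters. CCGGAAGT, an ETS-type motif, was found on either strand in 5 of the 61 (8.2%), compared to 2.46% of all.

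The microRNA removed in the knockout has the mature sequence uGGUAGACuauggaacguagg (RefSeq, chr12:109709065-109709085, plus strand), with the seed, bases 2 to 8, in capitals. Its 7-base complement GTCTACC was found in the 3′-UTR of 0 of the 81 members that have one, compared to 754 of 19100 genes (3.95%). Those 3′-UTRs are short, with a median of 72 bases over the 81 members and 691 bases over 20579 protein-coding genes.

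Gene counts ranged from 17168230 to 22660743 in total RNA and from 5587611 to 17095021 in AGO2-IP, where the ribosomal RNA precursor Rn45s took 72.2% to 80.5% of them. Without Rn45s and Lars2, which also collected a large share in AGO2-IP, 1115782 to 1875037 counts remained per AGO2-IP library. Of those counts, protein-coding genes without any count in total RNA (5193 genes) held 0.525% to 0.664% in the WT pair and 2.18% to 2.91% in the miR-379KO pair. Of 10 mesangial markers, 8 averaged at least 10 counts in both genotypes' total RNA, among them Acta2, Vim and, with 7 to 38 per library, Itga8. The others were Pdgfra, with 4 to 6 counts per total RNA library, and Thy1, with 0 to 3. The podocyte markers Synpo and Wt1 were also present, with 3561 to 10980 and 527 to 1566 counts. In such bulk RNA, fewer cells of a type and less RNA per cell cannot be told apart. The study calls the 2 AGO2-IP samples of a genotype independent without saying whether they came from separate animals, so p-values measure only the spread between these samples.

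In WT total RNA, ribosomal protein mRNAs took 3.003% of the gene counts in sample A and 5.08% in sample B, with Rn45s and Lars2 left out of the denominator. The corresponding miR-379KO shares were 3.92% (A) and 5.50% (B). In AGO2-IP their share was 1.49% (A) and 1.58% (B) for WT and 1.34% (A) and 1.30% (B) for miR-379KO. The genotypes overlapped in total RNA and did not overlap in AGO2-IP, where both miR-379KO libraries were lower. Mean shares were 4.04% ± 1.47 (SD, n = 2) and 4.71% ± 1.12 in WT and miR-379KO total RNA, with a two-sided exact permutation p = 0.667. In AGO2-IP they were 1.53% ± 0.0641 and 1.32% ± 0.0287, with an exact permutation p = 0.333, the smallest value that 2 against 2 allows. The 95% Wilson intervals, which cover counting error only, were 0.0165 to 0.042 percentage points wide. As a share of all gene counts, Rn45s included, the AGO2-IP order turned, with 0.214% ± 0.0715 in WT and 0.263% ± 0.00588 in miR-379KO.

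A total of 73 members averaged at least 1000 counts in total RNA, 29 of the small subunit, 40 of the large subunit, the 3 stalk genes and the paralogue form Rps27l. Levels of different genes were compared as CPM, counts relative to the TMM-scaled library size, per kb of annotated exon. On this scale the 73 had a range of 44.2-fold in mean level, compared to 17.5-fold in CPM alone. The highest was Rps2, a small subunit protein at the mRNA entry channel, with a mean of 1958 CPM per kb. Rplp1 of the stalk followed with 1660, Rpl41, the smallest ribosomal protein, with 1614, Rplp0, which anchors the stalk, with 1307 and Rps12 with 1234. The ranges of these neighbours over the 4 libraries overlapped, and that of Rps2 ran from 1216 to 2605 CPM. They shared a rise from sample A to sample B in each genotype, so this overlap does not show equal levels. Their order within single libraries was not tested. Rps15a was the lowest of the 73, with 44.3 CPM per kb, but its annotated exons span 5136 bases and include a long 3′-UTR of 4726 bases, so its value per kb depends on that form. In CPM, the most abundant members after Rps2 and Rplp0 (1956 and 1777) were Rpsa, also known as the laminin receptor precursor, Rpl4, which lines the exit tunnel, and Rpl3 of the peptidyl transferase centre, with 1303, 1264 and 1050.

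**Figure D1:**
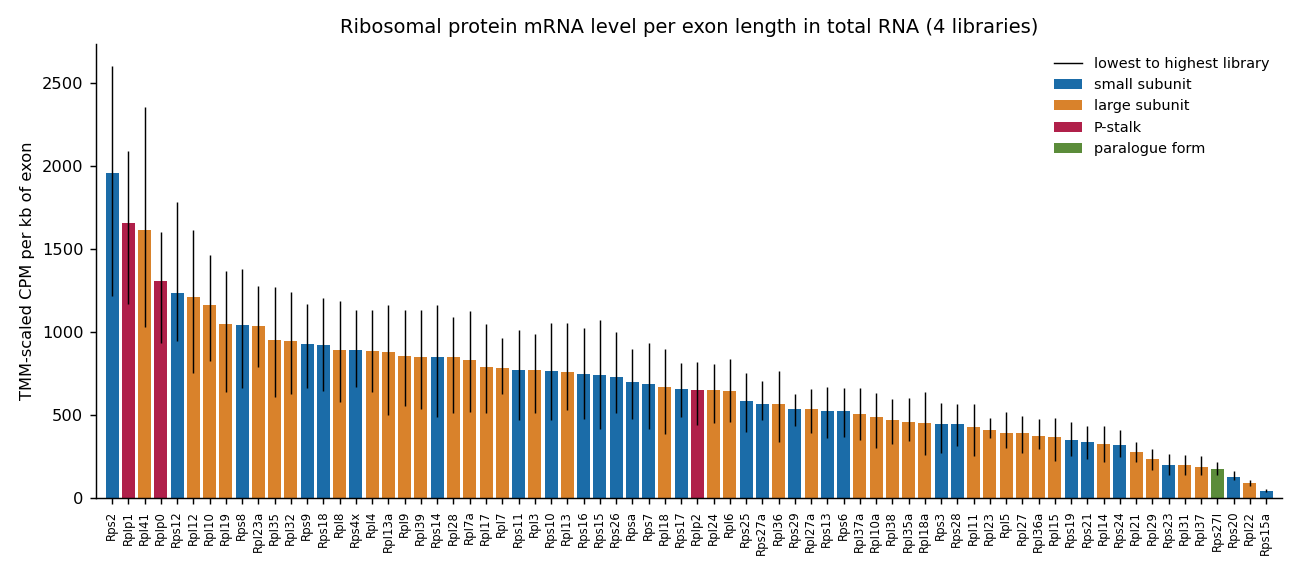
Mean level of 72 well-counted ribosomal protein mRNAs in total RNA, in TMM-scaled CPM per kb of annotated exon, ordered from high to low and coloured by subunit. Vertical lines run from the lowest to the highest of the 4 libraries. Rps2 (1958), Rplp1 (1660) and Rpl41 (1614) lead, and Rps15a (44.3) is the lowest.

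The other 9 members had few or no counts. Rpl26, a core protein of the large subunit, was listed at 0 in all 4 total RNA libraries, and Rpl30 had 4, 4, 5 and 8 counts in WT A, WT B, miR-379KO A and miR-379KO B. In the same order Rpl34 had 11, 29, 16 and 25 counts and Rps27 had 6, 32, 27 and 19. Rpl26, Rpl30 and Rpl34 encode proteins that every ribosome needs, so their entries cannot be read as levels of the mRNAs. Rps27 has the paralogue form Rps27l, described below, and its entry was not read as a level either. The sequence shared with gene copies was measured on 51-base windows of the spliced transcript, the shorter read length used for total RNA. The measure is the percent of windows, those across exon junctions included, that occur nowhere else in the genome. It was 20.9% for Rpl26, 20.97% for Rpl30, 36.0% for Rpl34 and 0% for Rps27. However, Rpl12 had 0.68% unique windows and 8081, 16564, 15380 and 17583 counts, so the low entries did not follow this measure and their cause was not tested. Over all 82 members the median was 35.8%, compared to 98.9% for 20581 protein-coding genes, and 15 members were under 10%. Counts of members with near-identical copies are therefore uncertain.

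Among the paralogue forms, Rpl10l and Rpl39l, both known from testis, were at 0 in all total RNA libraries, Rpl3l, known from muscle, had at most 2 counts, and Rpl32l at most 4. A count of 0 allows up to 3 counts per library. These 4 paralogues have at least 74.3% unique windows. Rps4l, which RefSeq lists as a transcribed pseudogene, had 116, 206, 313 and 155 counts in WT A, WT B, miR-379KO A and miR-379KO B. Rps27l, which is induced by p53, was the only form ending in l that was well counted, with 1589, 2351, 2413 and 2522 counts. Rps4x, the canonical counterpart of Rps4l, had 10907 to 18809 counts, whereas Rps27, that of Rps27l, was among the barely counted members above. Rps27a, a different protein made as a fusion with ubiquitin, had 6451 to 9828 counts.

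The first comparison asked whether loss of miR-379 changed ribosomal protein mRNAs in total RNA, and none passed the test. Of 76 members tested, 0 were called in edgeR (adjusted p under 0.05) and 0 had an unadjusted p under 0.05, compared to 0 called and 91 at that unadjusted level among all 12321 genes (0% and 0.739%). DESeq2 also called 0 members. Yet 75 of the 76 had a log2 fold change above 0, with a median of 0.27, compared to −0.01 over all genes tested and 0.04 over 1910 genes with at least 100 CPM in total RNA. With an offset for exon length and GC content the median of members was 0.096, and 6 of the 76 were below 0. The values of single libraries show what lies behind this median.

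In the 73 well-counted members, sample B was higher than sample A in all 73 in WT and all 73 in miR-379KO. The median log2 difference of B from A was 0.69 in WT and 0.55 in miR-379KO, compared to 0.00 and 0.05 over the genes with at least 100 CPM. Rps2 had 1216 CPM in WT A, 2248 in WT B, 1754 in miR-379KO A and 2605 in miR-379KO B. The order WT A, miR-379KO A, WT B, miR-379KO B thus ran through both genotypes, and the groups overlapped. No member tested had groups that did not overlap, against 9.07% of genes tested lower and 9.89% higher in both miR-379KO samples. Between A samples the median member was 0.37 higher in miR-379KO and between B samples 0.19 higher, whereas miR-379KO A was 0.34 lower than WT B and miR-379KO B was 0.91 higher than WT A. Without WT total RNA A the median log2 fold change of members was −0.04, and 58 of 76 were then below 0. Without miR-379KO total RNA B it was −0.02, and without WT total RNA B it was 0.67.

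**Figure D2:**
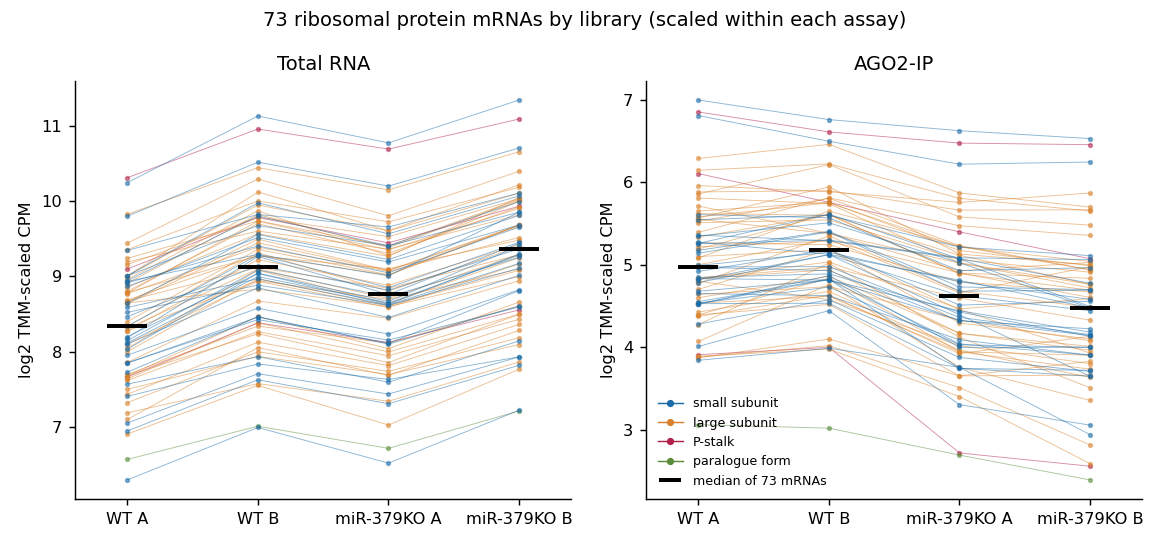
Levels of 73 ribosomal protein mRNAs in log2 TMM-scaled CPM, by library, in total RNA (left) and AGO2-IP (right). Each thin line joins the values of 1 mRNA and black bars are the medians. In total RNA all 73 are higher in B than in A within each genotype, and in AGO2-IP both miR-379KO medians (4.62 and 4.47) lie below both WT medians (4.97 and 5.18).

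The 3 members with the smallest p-values upward were Rps15, Rpl41 and Rpl39. Rps15, a small subunit protein near the decoding site, had 262, 528, 407 and 678 CPM in WT A, WT B, miR-379KO A and miR-379KO B, a log2 fold change of 0.46 ± 0.42 (SE). Rpl41 had 463, 759, 617 and 1060 CPM (0.46 ± 0.38), and Rpl39, a short protein at the exit tunnel, had 232, 408, 348 and 492 CPM (0.39 ± 0.35). In all 3 the miR-379KO A sample was below WT B, and edgeR's adjusted p was 1 to rounding. The 1 member below 0 was Rpl34 (−0.07 ± 0.68), one of the barely counted genes.

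A rise from sample A to sample B was also seen in most of the related genes outside the symbol rule. A list of 6 genes held ribosomal proteins such as Fau and Rack1 (a signalling scaffold on the small subunit) and the like forms Rpl36al, Rpl22l1 and Rpl7l1. Its median B minus A difference was 0.73 in WT and 0.54 in miR-379KO, with 6 of 6 higher in B in both. For 16 translation factors and other TOP mRNAs, such as Eef1a1, the carrier of aminoacyl-tRNA, these medians were 0.67 (15 of 16 higher) and 0.48 (16 of 16). For 31 ribosome assembly factors they were 0.38 (27 of 31) and 0.36 (29 of 31). None of these genes was called between genotypes in total RNA, with median log2 fold changes of 0.29, 0.21 and 0.14. The letters come from sample titles, and nothing used here says whether A or B marks a batch.

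The next comparison asked whether AGO2-IP recovered these mRNAs differently between miR-379KO and WT MMC. All 73 members tested had a log2 fold change below 0 and 35 of them (47.9%) were called lower, with none higher, compared to 1286 of 13505 genes called lower (9.52%) and 2887 higher (21.4%). However, genes with at least 100 CPM in total RNA, the range in which all 73 lie, also fell as a class, with 674 of 1909 called lower (35.3%) and 2 higher (0.105%). The median log2 fold change was −0.59 in members, −0.53 in the abundant genes and −0.01 in all genes tested. The member counts thus stood apart from all genes, but their median lay 0.06 below that of the abundant genes. The 73 that passed the filter were the same 73 that were well counted in total RNA.

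The lower AGO2-IP members covered both subunits, with 13 of 29 of the small subunit, 20 of 40 of the large subunit and 2 of 3 stalk genes called. The medians of the small and large subunit were −0.59 and −0.60. Both miR-379KO libraries were below both WT libraries in 71 of the 73, compared to 32.2% of genes tested (36.1% had both miR-379KO libraries higher). This share was not computed for the abundant genes, which also fell as a class. Only Rpl10, which is needed for subunit joining, and Rpl7a overlapped.

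Rplp2, an acidic protein of the stalk that recruits translation factors, changed most. Its counts were 153 (A) and 138 (B) for WT AGO2-IP, and 56 (A) and 46 (B) for miR-379KO AGO2-IP. The values did not overlap and were close within each genotype. The log2 fold change was −1.31 ± 0.24 (SE), with an adjusted p = 0.000566 in edgeR's quasi-likelihood test. Its partner Rplp1 fell by 0.70 on the log2 scale (adjusted p = 0.037 in edgeR), and the stalk base Rplp0 had −0.27 ± 0.26 and was not called. In total RNA, Rplp2 had 203, 334, 279 and 376 CPM in WT A, WT B, miR-379KO A and miR-379KO B, with no call.

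Rps13, of the small subunit, had 164 and 188 counts in the WT pair against 84 and 65 in the miR-379KO pair (log2 fold change −1.05 ± 0.23, edgeR adjusted p = 0.0024). Rps16, which reaches the decoding region, had 239 and 245 counts against 114 and 103 (−0.96 ± 0.22, edgeR adjusted p = 0.0032). Rpl18 had 349 and 314 against 187 and 119 (−0.92 ± 0.24). In each of them every miR-379KO value was below every WT value. Unique windows were 11.1% for Rps13, 13.8% for Rps16, 14.8% for Rpl18 and 30.2% for Rplp2.

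Rps29, a zinc finger protein mutated in some cases of Diamond-Blackfan anaemia, had 280 and 301 counts against 179 and 98 (−0.89 ± 0.25). Rpl38, required for translation of certain Hox mRNAs, had 171 and 234 against 115 and 80 (−0.88 ± 0.25). The miR-379KO pairs of these genes were spread more widely than those of Rplp2 or Rps16. At the other end, Rpl7 had 634 and 510 counts against 460 and 457 (−0.11 ± 0.24), and Rps4x had 389 and 340 against 289 and 261 (−0.20 ± 0.23), neither past the test.

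**Figure D3:**
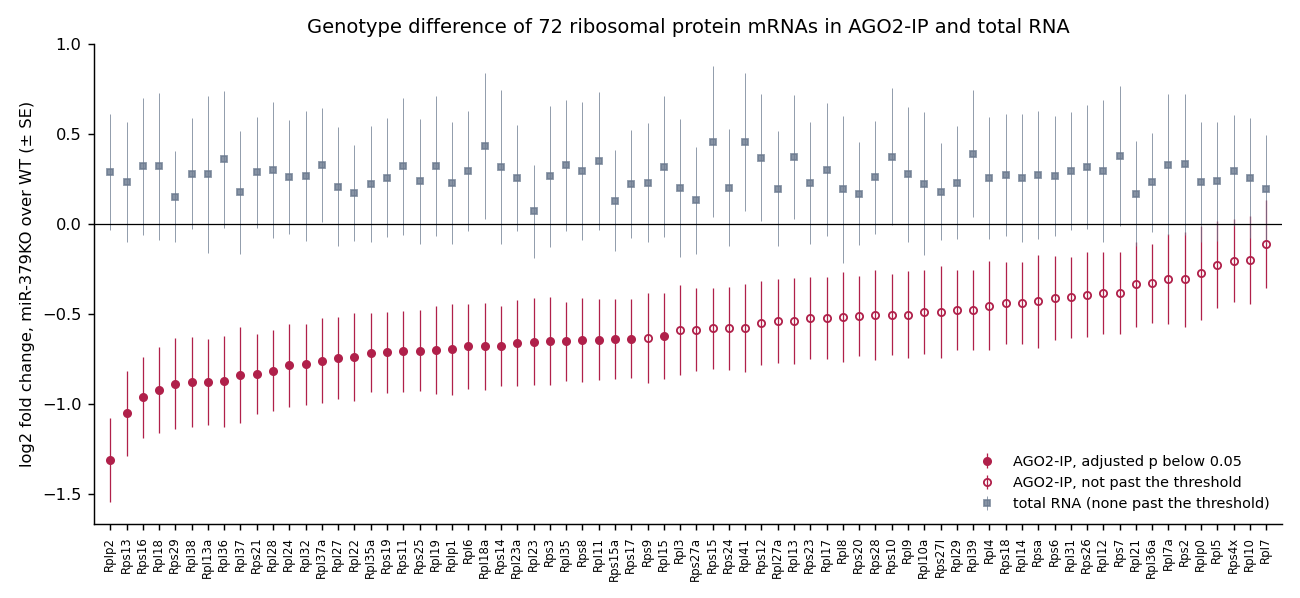
Log2 fold change of miR-379KO over WT for 72 ribosomal protein mRNAs, with standard errors, ordered by the AGO2-IP value. Circles are AGO2-IP, filled where edgeR's adjusted p was below 0.05, and grey squares are total RNA. All circles lie below 0, from −1.31 (Rplp2) to −0.11 (Rpl7), and all squares above 0, none past the threshold.

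Several settings moved these calls. With TMM factors taken from genes that have total RNA counts, 12 members were called lower and the median was −0.41, compared to 4.15% of all genes called lower. DESeq2 called 5, Rpl13a, Rpl18, Rplp2, Rps13 and Rps16, against 2.33% of all genes lower. With an offset for exon length and GC content, the median was −0.28 and 13 of 73 were called lower, of which 8 were among the 35, against 12.3% of all genes. Rplp2, at −0.61, then missed the threshold (edgeR adjusted p = 0.053). With a minimum mean of 50 counts 1 member, Rplp2, was called and the median was −0.22, against 0.805% of all genes lower. Leaving out miR-379KO AGO2-IP B left 3 calls (Rplp2, Rps13 and Rps16), with 1.08% of all genes lower, and leaving out WT AGO2-IP B left 11, with 5.26%. Reads that fell in no gene moved with genotype, from 46.6% and 49.7% of the reads with a single placement (WT pair) to 73.4% and 76.4% (miR-379KO pair), and so did the share of genes silent in total RNA given above. The part of these shifts in the member values was not tested.

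**Figure D4:**
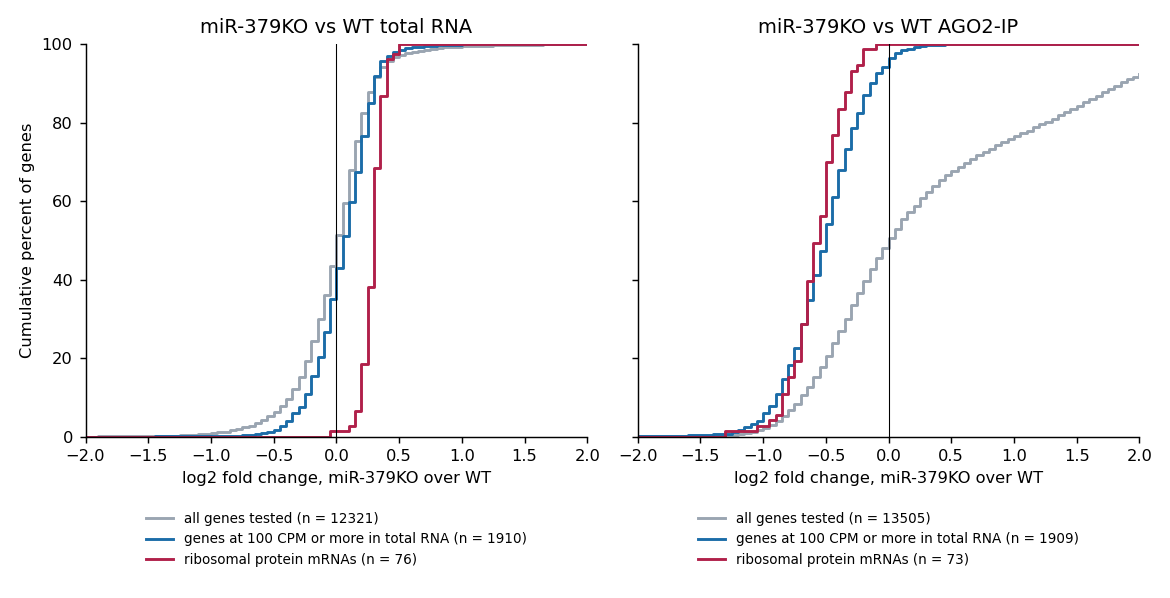
Cumulative percent of genes by log2 fold change of miR-379KO over WT in total RNA (left) and AGO2-IP (right), for all genes tested, genes with at least 100 CPM in total RNA, and ribosomal protein mRNAs. In AGO2-IP the curve of the ribosomal protein mRNAs (median −0.59) runs beside that of the abundant genes (−0.53), and in total RNA it lies to the right of both (medians 0.27, 0.04 and −0.01).

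Among the related genes, 2 of the 6 ribosomal proteins and like forms were called lower in AGO2-IP, Fau among them (list median −0.41). So were Eif3h, Eif3k and Eef1b2 of the translation factors (3 of 16, median −0.42) and Bop1 of the assembly factors (1 of 31, median −0.32). Eef1a1, the most abundant of them, had a log2 fold change of −0.06 ± 0.31. None was called higher.

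Across the 73 members, the AGO2-IP fold change was less negative in longer and more abundant mRNAs. Spearman's rho was 0.34 with transcript length, 0.38 with mean total RNA level and −0.31 with GC content, and 0.06 with the number of snoRNAs hosted. These are descriptions over genes of the same libraries. The median was −0.57 in 28 members that host a snoRNA and −0.62 in 45 that do not, and −0.63 in 26 members with at least 50% unique windows and −0.58 in the other 47.

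The last comparisons set AGO2-IP against total RNA within each genotype, to ask how much of each mRNA was recovered with AGO2 relative to its abundance. They use the same libraries as the comparisons above. In WT MMC, 54 of 76 members (71.1%) were called lower in AGO2-IP at a 2-fold difference and none higher, compared to 1277 of 17429 genes lower (7.33%) and 6230 higher (35.7%). In miR-379KO MMC, 73 of 76 (96.1%) were lower, compared to 3371 lower (19.3%) and 7256 higher (41.6%). Genes with at least 100 CPM in total RNA were called lower in 27.4% and higher in 4.08% of cases for WT, and lower in 62.3% and higher in 1.57% for miR-379KO. The median log2 difference of members was −1.29 in WT and −2.25 in miR-379KO, compared to −0.54 and −1.29 in the abundant genes and 0.49 and 0.47 in all genes. By these medians, members lay further below total RNA than the abundant genes did. The assays differed in RNA handling, with cross-linking and sonication in AGO2-IP alone, and the study names small RNA-seq for unligated AGO2-IP RNA, so recovery and handling cannot be told apart. Alignments set aside for more than 1 placement made up 13.7% to 16.0% of each total RNA count list and 46.5% to 54.4% of each AGO2-IP list. The part of this difference in the member values was not tested.

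The most depleted members called in both genotypes included Rps4l, Rps4x, Rpl12 and Rps3 in WT and Rplp2, Rps16, Rps13 and Rpl32 in miR-379KO. For Rps4x, WT total RNA held 10907 and 16571 counts and WT AGO2-IP 389 and 340, a log2 difference of −1.86 ± 0.31 after scaling. Rps3, a small subunit protein at the mRNA entry channel with 95.7% unique windows, had −1.69 ± 0.37 in WT and −2.78 ± 0.38 in miR-379KO. Rplp2 had −1.65 ± 0.31 in WT and −3.43 ± 0.34 in miR-379KO. Unique windows were 15.7% for Rps4x and 30.2% for Rplp2. Rps4l rested on 1 to 7 counts per AGO2-IP library.

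At the opposite end stood Rps23, which forms part of the decoding centre. It had 1315 and 2324 counts in WT total RNA and 308 and 314 in WT AGO2-IP, a log2 difference of 0.84 ± 0.30, and it was the only well-counted member above 0. In miR-379KO it had 2106 and 2539 counts in total RNA and 194 and 184 in AGO2-IP (−0.09 ± 0.30). Rpl37 (−0.10 in WT and −1.31 in miR-379KO) and Rps29 (−0.20 and −1.43), together with Rps26 (−0.39 and −1.28), came next. These 4 were chosen after their values were seen. Rps23 has only 7.92% unique windows, and Rps26 39.4%. The order of members was similar in both genotypes (Spearman's rho 0.87 over 73 members, in libraries scaled together), and in WT the more abundant members were the more depleted (rho −0.51 with the total RNA level, which enters both measures). Without WT total RNA B, the median in WT was −0.68 and 19 members were called, 17 lower and 2 higher, compared to 3.59% of all genes lower.

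**Figure D5:**
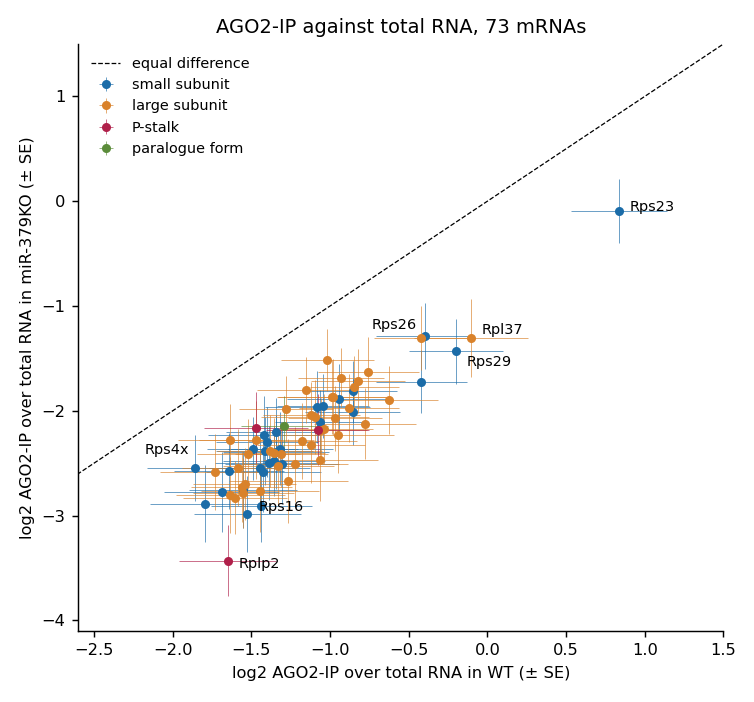
Log2 difference of AGO2-IP from total RNA for 73 ribosomal protein mRNAs in WT (x axis) and miR-379KO (y axis), with standard errors. The dashed line marks equal differences. All points lie below the line, Rps23 is the only 1 above 0 in WT (0.84), and Rplp2 is the lowest in miR-379KO (−3.43).

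Finally, the AGO2-IP change was set against the total RNA change in 1 fit of all 8 libraries (the interaction of genotype and assay). None of 76 members was called in edgeR, and 49 had an unadjusted p under 0.05, all negative, compared to 0 called and 2733 at that level among 17429 genes (0% and 15.7%). DESeq2 called 1 member, Rplp2, and 0.689% of all genes. The median over members was −1.05, compared to −0.79 over genes with at least 100 CPM and 0.01 over all genes. Rplp2 had the smallest p downward, −1.78 ± 0.44, followed by Rps13 (−1.47 ± 0.46) and Rps21 (−1.30 ± 0.41), with edgeR adjusted p-values of 0.23 to 0.24. The 2 members above 0 were Rps4l (0.70 ± 0.85) and Rpl34 (0.39 ± 1.38). Other settings did call members, all of them lower. The offset for exon length and GC content gave 26 members against 7.28% of all genes lower, and the offset with a replicate block gave 38 against 11.97%. A block for the culture, which treats each genotype and letter as 1 culture across the assays and was added after the data were examined, gave 39 against 5.61%. Without WT total RNA B, in which these mRNAs were higher than in WT A, 63 members were called and the median was −1.61, against 7.71% of all genes lower.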

How the data were processed

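Total RNA and AGO2-IP were each measured in 2 samples of WT and 2 of miR-379KO MMC. The values used were gene counts as deposited by the authors, whole reads without normalization, 1 list per sample. According to the study's methods, a stranded mRNA kit was used for total RNA, read as 51 bp single or 101 bp paired ends, and AGO2-IP RNA as 101 bp paired ends. Adapter ligation without size selection is described there for the hybrid libraries of the study, and the AGO2-IP library kit is not given in the sources used here. Reads were aligned to mm10 with TopHat (the submitters' processing notes also name Bowtie2 2.1.0.1 and HTSeq 0.6.0) and counted by strand on RefSeq genes. Reads with more than 1 placement were not counted, which affects genes with near-identical copies.

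Of the 24639 genes listed, those kept by filterByExpr with a minimum count of 10 were fitted in edgeR 4.0.16 under R 4.3.3. The fits used TMM factors and a robust quasi-likelihood test, and p-values were adjusted by Benjamini-Hochberg over all genes tested. Genotype comparisons used the 4 libraries of the assay, the others all 8, with a 2-fold minimum for AGO2-IP against total RNA. Fold changes are log2 and SE is the standard error derived from the F statistic. CPM were scaled within each assay. Shares were tested by exact permutation in scipy. DESeq2 1.42.0, other scaling, filters, an offset for exon length and GC content (lowess span 0.3), a replicate block and omission of each replicate were alternatives. Symbols were matched to RefSeq of GRCm38.p6, 23602 directly and 716 by synonym. All 82 members matched. The fits were tested on simulated data with 200 changed genes. Of 100 genes changed 2-fold, 19 were recovered in the total RNA comparison (12167 genes fitted), 58 in the AGO2-IP comparison (12254 genes) and 2 in the interaction (17376 genes). Of 100 changed 4-fold, 89, 100 and 52 were recovered. In the same order, 24, 10 and 5 unchanged genes were called.

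Named members were the 5 highest and lowest in CPM and in CPM per kb, up to 6 called members per direction with the largest change in each genotype comparison and up to 5 for AGO2-IP against total RNA, the 3 smallest p-values per direction where none was called, and the stalk, ubiquitin fusion and paralogue forms. Others are named for contrast. Some genes that met these rules are not reported here and not drawn by name, and were not replaced, but they stay in the counts and medians. The members and lists were chosen with earlier results of these data known.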

Additional observations from a re-analysis of the deposited data

How the results depend on the processing

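In total RNA, 0 members were called under every alternative run, and the median log2 fold change was 0.096 with the offset for exon length and GC content and −0.04 to 0.67 with each replicate left out. For AGO2-IP between genotypes (35 called, median −0.59), the calls and medians were 12 and −0.41 with TMM from genes with total RNA counts, 5 called with DESeq2, a median of −0.79 without a filter, 1 and −0.22 with a minimum mean of 50 counts, 1 and −0.74 with all 8 libraries in 1 fit, 13 and −0.28 with the GC and length offset, and 3 to 31 and −0.75 to −0.53 with each replicate left out. RLE factors gave 39 calls, all lower. Without a filter 52 of 81 members tested were called, 51 lower and 1 higher. The replicate block gave 23 calls, and the block with the offset gave 7 and −0.29. What the letters mark is not given. Same-letter deviations correlated between genotypes at −0.11 in total RNA and 0.04 in AGO2-IP, and between assays at 0.21 in WT and 0.17 in miR-379KO. The crossed pairing in total RNA called 0 members.

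For AGO2-IP against total RNA, each replicate left out gave 19 to 69 calls and medians of −1.69 to −0.68 in WT, and in miR-379KO the median was −1.76 with a minimum mean of 50 counts, −2.63 with the offset and −2.61 with the block and offset. Members called in the interaction were 1 with DESeq2, 26 with the offset, 38 with the block and offset, 39 with a block for the culture (added after the data were examined) and 0 to 63 with each replicate left out, with medians of −1.61 to −0.68. The log2 ratio of AGO2-IP shares was −0.22, but 0.34 over all gene counts and −0.31 without the 20 most abundant genes. Rpl34, barely counted, changed sign in total RNA without WT B (0.70) or miR-379KO A (0.41), and in the interaction without WT total RNA B (−0.54), miR-379KO total RNA A (−0.07) or miR-379KO AGO2-IP B (−6.79) and with the culture block (−0.062); its interaction values without 1 replicate ran from −6.79 to 1.64. The cause was not tested. Levels per kb of unique sequence were not run, since Rps27 and Rpl28 have none.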
